A study of Mus musculus with 2 samples.

Results

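The 36 genes described here act in mitosis, from the kinases that start it to the proteins that end it. They were taken from the matrix by symbol, whatever their counts, and all 36 were found among the 28692 genes of the matrix and all 36 passed a minimum of 30 unique molecular identifiers (UMIs, counts of captured transcripts). Cultures of postnatal neural stem cells came from the subventricular zone of C57/Bl6J mice, a stem cell niche beside the lateral ventricles, and single cells were profiled with 10x 3′ chemistry. The labels name 1 library given 1 µM of 20HC, an oxysterol, and 1 control, which per the design text received DMSO as vehicle, both sampled 3 days after the growth factors EGF and FGF were withdrawn. The treatment field of the control repeats the 20HC treatment, so its group rests on its title. The exact age of the mice and how many were pooled are not given in the sources used here.

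All barcodes stand in 1 matrix and end in the number 1 or 2, and no label or file ties a number to a library. The matrix is therefore 1 sample, treated and control cells cannot be told apart, and nothing was tested. Every interval below is a 95% interval for counting error only, exact Poisson for levels and exact binomial (Clopper-Pearson) for shares. Of 14685 barcodes with 41462326 UMIs, 13028 were kept as cells, 9630 with number 1 and 3398 with number 2, at a median of 2842 UMIs. The 2 numbers share 48 barcode sequences, 34 of them among the kept cells. Levels are UMIs of a gene or gene group per 1000000 UMIs of the cells named (CPM). UMIs were read near the 3′ end and not along the gene, so a level depends on capture at that end, and genes are compared with themselves across cells rather than with each other.

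At the entry to mitosis Cdk1, bound to the B cyclins Ccnb1 and Ccnb2, phosphorylates the proteins that condense chromosomes and build the spindle. Kinetochores on the centromeres then attach chromosomes to microtubules, and a checkpoint holds the cell until all are attached. The anaphase-promoting complex ends this state by having the cyclins and securin destroyed, after which the midzone of the spindle directs cytokinesis. Transcripts of many of these genes are made late in the cycle, in G2 and mitosis. In the subventricular zone dividing intermediate progenitors lie between slowly dividing astrocyte-like stem cells and the neuroblasts that leave for the olfactory bulb.

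Most cells held few or none of the genes, and some held many. No gene of the 36 was detected in 5086 cells (39.0%) and 1 or 2 genes in 4063 cells (31.2%), while 1186 cells (9.10%) held 20 or more and the richest cell held 34. Cells with 5 or more of the genes numbered 3107 (23.8%, interval 23.1 to 24.6%) and carried 93.7% of all 138680 UMIs of the group. With every cell thinned to 2000 UMIs, which left out 2460 shallower cells, the share was 23.5% (2485 of 10568 cells, interval 22.7 to 24.3%). Cells with 5 or more of the genes had a median of 3095 UMIs and 1.96% mitochondrial UMIs, against 2766 UMIs and 3.40% in the other cells.

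To ask which cells these were, clusters were drawn without the 36 genes and without 6 lists of other cell cycle genes and their regulators; cycle genes outside these lists were not removed. The main classes were astrocyte-like (7282 cells in 2 clusters, led by Gfap and by Pcp4), neuroblast-like (3138), progenitor-like (989), oligodendrocyte precursor-like, written OPC-like (630), fibroblast-like (218) and microglia-like cells (35). 2 clusters stayed unnamed, one of 475 shallow cells (median 1089 UMIs) and one of 261 cells led by Cox4i2, Adm and Egln3. The neuroblast-like cluster was led by 2810417H13Rik, Tubb3, Hist1h1b, Rrm2, Ube2c and Top2a. Of its 10 leading genes Tubb3 and Dlx1 are neuroblast markers, and most of the others, with Pbk, Esco2 and Fbxo5 among them, are cell cycle genes. 2810417H13Rik, Hist1h1b and Esco2 stand in none of the removed lists, and how far division itself drew this cluster was not tested. Of 12 neuroblast markers 11 were higher in it than in the other cells. All 10 oligodendrocyte precursor markers were lower in it. The Pcp4 cluster rests on fewer markers than the Gfap cluster, with 4 of 12 astrocyte markers at least 2-fold higher than in the other cells against 9 of 12, and its 10 leading genes include Agt, C1ql1 and Stmn2, markers of the astrocyte, oligodendrocyte precursor and neuroblast lists. In the fibroblast-like cluster all 6 fibroblast markers were higher than in the other cells (summed 9043 CPM against 12.3). All 6 pericyte or smooth muscle markers were higher there too (7648 CPM against 140), so the name does not tell these cell types apart. In astrocyte-like cells all 7 ependymal markers were higher as well (220 CPM against 41.8). A comparison of a cluster with the rest is a description.

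**Figure D1:**
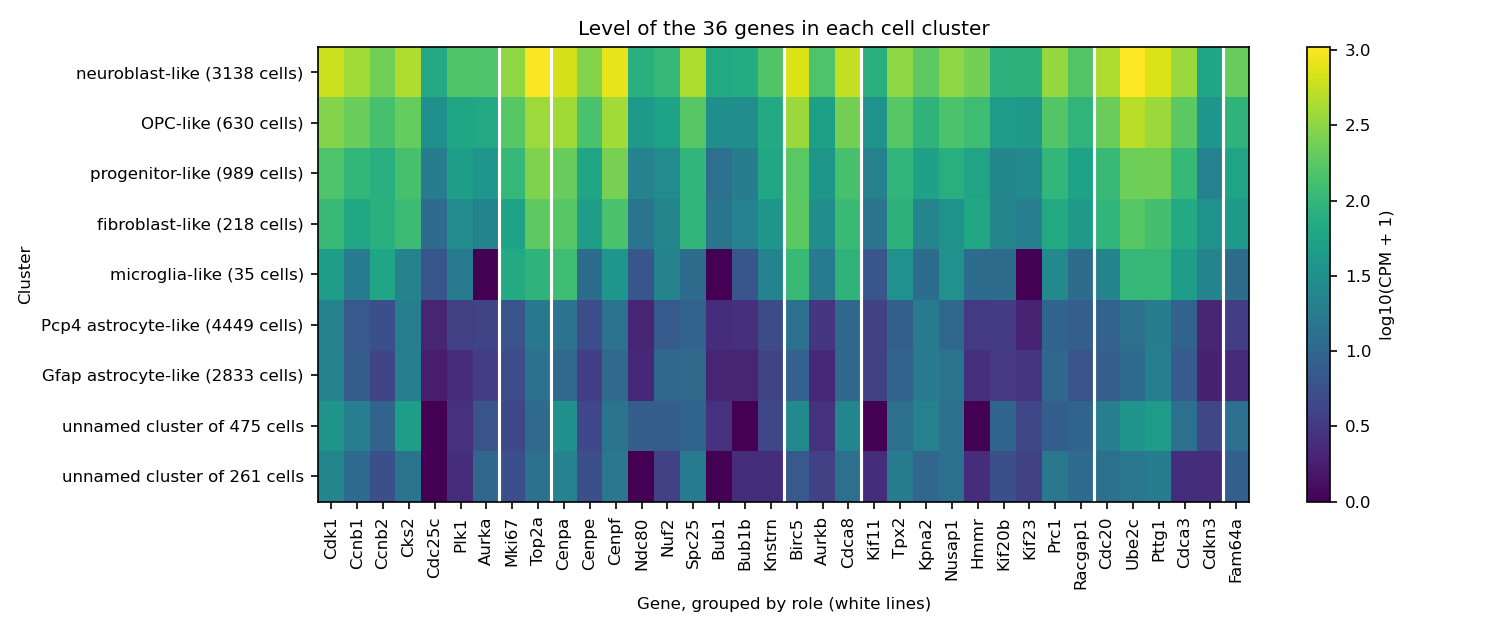
Level of each of the 36 genes (columns, grouped by role between white lines) in each cluster (rows, with its number of cells), as log10 of CPM + 1 in colour. The neuroblast-like row is bright throughout, the OPC-like row is next, and both astrocyte-like rows are dark for every gene.

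Neuroblast-like cells held 24.1% of the cells and 78.8% of the group's UMIs. Their summed level was 12138 CPM (interval 12066 to 12210) against 1003 CPM in the other cells. A gene is called higher or lower in a class where its CPM differs at least 1.5 times from that of all other kept cells, in the same direction among barcodes of both numbers, and the other cells' CPM lies outside the class's Poisson interval. All 36 genes were called higher in neuroblast-like cells, where 16.3% of the 13037 genes with at least 30 UMIs were (45.4% were called lower). The median log2 ratio, with 5 CPM added, was 3.31 for the 36 genes and -0.26 for all genes, and at Leiden resolution 1.0 it was 2.13 for the 36. OPC-like cells came next at 5821 CPM (5715 to 5928), against 3496 CPM in the other cells, and 29 of the 36 were called higher against a background of 8.2% of genes (20.8% lower). With barcodes of number 2 alone 9 were, and with a 2-fold limit 1 was. The 7 not called there were Top2a, Aurkb, Bub1b, Plk1, Spc25, Knstrn and Cks2.

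Progenitor-like cells were at 3304 CPM (3236 to 3372), against 3642 CPM in the other cells, with no gene called higher (background 4.58%) and only Bub1 called lower (background 16.7%). Their level depends on the clustering: it ran from 1869 to 9336 CPM over the other settings, and all 36 genes were called higher at Leiden resolution 1.0 and 29 lower with doublets kept. Fibroblast-like cells were at 2474 CPM (2376 to 2575) and had 17 genes called lower against a background of 19.2% and none higher (11.8%), with 8 lower in barcodes of number 1 alone and 27 in number 2 alone. Microglia-like cells, 35 in all, were at 1223 CPM (1069 to 1393), with 23 genes called lower against a background of 15.6% and none higher (5.26%). Aurka, Bub1 and Kif23 were not detected in them, which allows up to 3 UMIs each. Astrocyte-like cells had the least of the named classes, 255 CPM (248 to 261) against 8230 CPM in the other cells, and all 36 genes were called lower (background 19.1%) and none higher (38.5%). All 36 were also called lower in the unnamed cluster of 475 cells (453 CPM, background 30.2%, with 2.59% higher) and the unnamed Cox4i2 cluster (291 CPM, background 7.73%, with 5.76% higher). In astrocyte-like cells fewer dividing cells and less RNA per dividing cell cannot be told apart from these sums alone. The 73 astrocyte-like cells with 5 or more of the genes had 3232 CPM and a median of 7 genes. The 2431 such neuroblast-like cells had 14416 CPM and a median of 17 genes. Many of the 73 lay close to the limit that chose them, with 14 cells at 5 genes and 19 at 6. Whether dividing astrocyte-like cells carried less of this RNA per cell was therefore not tested.

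Cells with 5 or more of the genes made up 77.5% of neuroblast-like cells (interval 75.9 to 79.1%, cells thinned to 2000 UMIs) and 41.4% of OPC-like cells (37.2 to 45.7%). The share was 23.3% in progenitor-like cells (20.4 to 26.4%), 24.0% in fibroblast-like cells (18.3 to 30.5%) and 9.38% in microglia-like cells (1.98 to 25.02%, 3 of 32 cells). It was 0.581% in astrocyte-like cells (0.407 to 0.803%, 36 of 6200 cells). The unthinned shares were 77.5, 44.6, 25.3, 29.4, 11.4 and 1.00%, in the same order of classes. The intervals of neuroblast-like, OPC-like and astrocyte-like cells stand apart from one another, and those of progenitor-like and fibroblast-like cells overlap. With doublets kept the share was 12.7% in progenitor-like and 24.3% in fibroblast-like cells, and with no cell filter it was 32.4% and 23.3%, so the place of progenitor-like cells depends on these settings. At least 1 UMI of the genes was found in 45.0% of astrocyte-like cells and in 97.0% of neuroblast-like cells, at median depths of 2966 and 2744 UMIs. It was 43.3% in the Cox4i2 cluster (37.2 to 49.5%, median 2513 UMIs) and 48.6% in microglia-like cells (31.4 to 66.0%, median 5054 UMIs). In the unnamed cluster of 475 cells it was 36% (31.7 to 40.5%, median 1089 UMIs), lower than in astrocyte-like cells (43.9 to 46.2%) with intervals apart and at a lower depth. No class here can be taken to lack these genes, so the part of free RNA in the shares with any UMI was not tested.

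**Figure D2:**
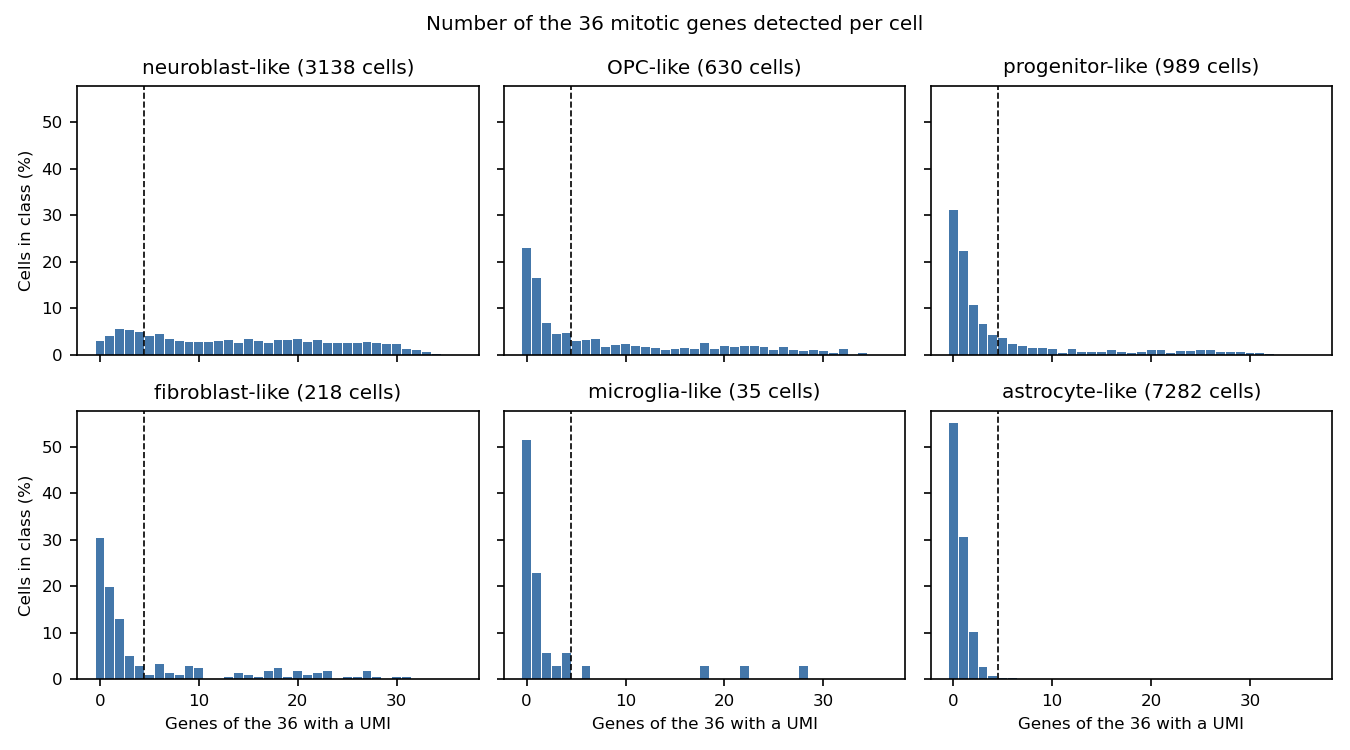
Number of the 36 genes with at least 1 UMI (horizontal axis) against the percent of cells of the class (vertical axis) in 6 classes; the dashed line marks the limit of 5 genes. Neuroblast-like cells spread over the whole range, while 7209 of the 7282 astrocyte-like cells lie left of the line.

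The neuroblast, oligodendrocyte precursor and astrocyte lineages stood in the same order when cells were chosen by markers instead of clusters. When cells were chosen by at least 2 UMIs of Dlx1, Dlx2, Dlx5 or Dlx6os1, markers of the neuroblast lineage, and fewer than 2 of oligodendrocyte precursor markers, the 1690 cells had a summed level of 11831 CPM and 70.5% held 5 or more of the genes (interval 68.1 to 72.9%, thinned). Of these cells 89.3% lay in the neuroblast-like cluster, and Dlx genes are on the marker list that named it, so this choice is not independent of that cluster. The 600 cells with at least 2 UMIs of Pdgfra, Cspg4, Gpr17, Sox10, Olig1 or Olig2, and fewer than 2 of the Dlx genes, had 3707 CPM and 26.9% (23.2 to 30.8%). That level lies below the 5821 CPM of the OPC-like cluster and near the 3617 CPM of all kept cells. The 7188 cells with at least 5 UMIs of Gfap, Aldoc, Aqp4 or Slc1a3, and few of either other group, had 670 CPM and 3.67% (3.22 to 4.17%). The 3533 cells with few of any of these markers had 6242 CPM and 45.9% (43.9 to 47.9%), and 42.2% of them lay in the neuroblast-like cluster, so many cells of that cluster are not among those chosen by Dlx genes. This choice of cells was made after the clusters had been seen.

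The 7 genes of mitotic entry came to 2073 CPM in neuroblast-like cells, 995 CPM in OPC-like cells and 56.4 CPM in astrocyte-like cells. Cdk1, the kinase itself, was at 609 CPM (593 to 625) in neuroblast-like, 287 (264 to 312) in OPC-like and 20.9 (19.1 to 22.9) in astrocyte-like cells. Its cyclin Ccnb1 was at 396, 214 and 6.22 CPM in the same 3 classes, and Ccnb2 at 236, 137 and 4.01 CPM. The 3 classes stood in the same order for each of these genes. Cks2, a small subunit of the cyclin-dependent kinases, was at 457, 200 and 19.3 CPM. The phosphatase Cdc25c, which removes the inhibitory phosphates from Cdk1, was sparse at 65.9, 32.1 and 0.902 CPM. Plk1 (157, 60.1 and 2.21 CPM) and Aurka (151, 64.7 and 2.89 CPM), kinases of centrosome maturation and spindle assembly, kept the order too.

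The 2 genes of chromosome structure followed it. Top2a, the topoisomerase that untangles sister chromatids, was at 1006 CPM (985 to 1027) in neuroblast-like, 382 (355 to 410) in OPC-like and 14.3 (12.7 to 15.9) in astrocyte-like cells. Mki67, which coats mitotic chromosomes and is the antigen of the Ki-67 stain for dividing cells, was at 329, 170 and 4.74 CPM.

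The 9 centromere, kinetochore and checkpoint genes summed to 2672, 1320 and 50.9 CPM in neuroblast-like, OPC-like and astrocyte-like cells. Cenpf, a kinetochore protein of late G2, was at 808 CPM (789 to 826), 393 (366 to 422) and 11.7 (10.3 to 13.2), and Cenpa, the histone H3 variant that marks the centromere, at 660 CPM (644 to 677), 384 (357 to 412) and 11.8 (10.4 to 13.3). Spc25, Ndc80 and Nuf2 encode 3 parts of the Ndc80 complex, which binds microtubules. Spc25 was at 441 CPM in neuroblast-like cells, Nuf2 at 101 and Ndc80 at 81.4, and in astrocyte-like cells they were at 8.88, 7.44 and 1.13 CPM. Cenpe, a kinesin that carries chromosomes to the metaphase plate, was at 287, 142 and 3.56 CPM in the 3 classes. Bub1 (66.4, 30.6 and 1.31 CPM) and Bub1b (70.6, 29.1 and 1.40 CPM), checkpoint kinases, were among the sparsest genes, and Knstrn, which acts at kinetochores and spindle poles, was at 157, 70.2 and 3.65 CPM.

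The chromosomal passenger complex, which corrects faulty attachments and then moves to the midzone, was represented by 3 genes with 1400, 660 and 21.6 CPM in the same classes. Its kinase Aurkb was at 152 CPM in neuroblast-like cells and 50.6 in OPC-like cells, where it was not called, since the other cells had 42.5 CPM. Birc5 (survivin) was at 697 and 366 CPM and Cdca8 (borealin) at 551 and 243 CPM in these classes, and both were called higher in each.

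The 9 spindle and midzone genes summed to 1823, 901 and 58.9 CPM in neuroblast-like, OPC-like and astrocyte-like cells. They include the motor Kif11, which pushes spindle poles apart, at 77.3, 34.6 and 2.98 CPM, and Tpx2, which activates Aurka on the spindle, at 320, 169 and 7.89 CPM. Prc1, which bundles midzone microtubules, was at 345, 161 and 8.75 CPM. Kif23 and Racgap1 together form centralspindlin, which recruits the cytokinesis machinery: Kif23 was at 88.1, 40.6 and 1.31 CPM and Racgap1 at 162, 94.7 and 6.36 CPM. Nusap1 and Hmmr, both microtubule-associated, were at 320 and 242 CPM in neuroblast-like cells and 147 and 119 CPM in OPC-like cells. Kif20b, a kinesin of cytokinesis, was at 86.1, 44.6 and 2.26 CPM, and Kpna2, an importin that also holds spindle factors such as Tpx2 inactive, at 183, 91.2 and 16.5 CPM.

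The 5 genes of anaphase and exit came to 2629, 1302 and 45.9 CPM in the 3 classes. Ube2c, the ubiquitin-conjugating enzyme of the anaphase-promoting complex, had the most UMIs of the 36 genes (11519) and was at 1047 CPM (1026 to 1068) in neuroblast-like, 504 (474 to 536) in OPC-like and 11.4 (10.0 to 12.9) in astrocyte-like cells. The complex's activator Cdc20 was at 447, 212 and 7.62 CPM and its target Pttg1, securin, at 708, 367 and 18.5 CPM. Cdca3, counted in this group although it promotes entry through removal of the Cdk1 inhibitor Wee1, was at 368, 180 and 7.35 CPM. Cdkn3, a phosphatase of cyclin-dependent kinases, had the fewest UMIs (733) and was at 59.9, 38.1 and 1.04 CPM. The last gene, Fam64a, was at 206, 90.2 and 2.07 CPM.

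How far the level fell in astrocyte-like cells differed between genes. The sum over the 36 genes in astrocyte-like cells was 2.098% of that in neuroblast-like cells, and 1.74% with the 73 astrocyte-like cells that held 5 or more of the genes left out. Kpna2 stood at 8.99% of its neuroblast-like level (interval 8.09 to 9.96%, 365 UMIs), Nuf2 at 7.38% (6.30 to 8.60%) and Cks2 at 4.21% (3.82 to 4.63%). Hmmr stood at 0.822% (0.597 to 1.10%), Fam64a at 1.01% (0.737 to 1.34%) and Ube2c at 1.09% (0.956 to 1.23%). The interval of 10 genes lay above the ratio of the sums and that of 16 below it. With the 73 cells left out, Kpna2 remained at 8.87% and Nuf2 at 6.99%. The part of free RNA in these levels was not tested.

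The genes were found in the same cells. For each gene, cells with 5 or more of the other genes were set against cells with none of the others, and all 36 had a level at least 10-fold higher in the cells with the others. Among all genes, 2.04% were that much higher in cells with 5 or more of the genes than in cells with none. Ube2c had 1109 CPM (1089 to 1130) in cells with 5 or more others and 9.51 CPM (7.97 to 11.3) in cells with none, and it was detected in 67.6% and 2.51% of them. The fold was highest for Hmmr at 211 (261 and 1.24 CPM) and Cenpe at 191 (304 and 1.60 CPM). It was lowest for Kpna2 at 12.0 (189 and 15.8 CPM) and Nuf2 at 18.0 (107 and 5.95 CPM). Of the UMIs of Kpna2 79.7% lay in cells with 5 or more of the other genes, against 98.4% of those of Hmmr.

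Within neuroblast-like cells the genes were not all found together to the same degree. Over 2556 such cells thinned to 2000 UMIs, the Pearson correlation of log counts had a median of 0.22 over the 630 pairs, and 18 pairs were above 0.5. The pairs share their cells and their depth, and sparse genes cannot reach high values. Ube2c and Cenpf had the highest value, 0.69, followed by Ube2c with Ccnb1 (0.60) and with Cdc20 (0.57). Top2a with Cdk1 reached 0.53, and Cenpa with Pttg1 0.56. Top2a and Pttg1 gave the only value below 0, -0.02, although these genes were detected in 65.3% and 57.5% of the cells.

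Cells rich in the 36 genes were next ordered by UMIs of 30 S phase genes, none of which is one of the 36. A first split set cells with 3 or more S phase UMIs against cells with none, but of the 2485 thinned cells with 5 or more of the genes only 39 had none. Those 39 held a median of 7 of the genes and were neuroblast-like in 33.3%, against 14 genes and 80.5% in the others. By that split 8 of the 36 genes were lower in the S phase-rich cells, with 46% of all genes lower. A division of the same cells into equal parts was therefore added after the data had been seen. It set the 860 cells with 14 or more S phase UMIs, of which 94.5% were neuroblast-like, against the 931 cells with 7 or fewer, of which 63.1% were.

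In this second split 28 of the 36 genes were lower in the cells with many S phase UMIs (25 with intervals apart) and 8 were higher (2 with intervals apart). Of all genes 53% were lower, and the median log2 ratio was -0.74 for the 36 and -0.03 for all genes. Cells with many S phase UMIs held a median of 11 of the genes, and cells with few held 16. Cenpa was at 256 CPM (232 to 281) in cells with many and 1185 CPM (1135 to 1236) in cells with few. Pttg1 was at 281 CPM (256 to 307) and 1195 CPM (1145 to 1248), Cdc20 at 177 (157 to 198) and 777 (737 to 818), and Ube2c at 555 (521 to 592) and 1535 (1479 to 1593). For each of these genes the 2 intervals lie far apart. By the first split Cenpa (726 CPM against 1109 in cells with no S phase UMI) and Pttg1 (727 against 1031) were lower too. Cdc20 and Ube2c went the other way by that split. Cdc20 was at 514 CPM (493 to 535) against 289 (181 to 438). Ube2c was at 1164 CPM (1132 to 1196) against 592 (432 to 792). The log2 ratios of Cdc25c (-2.20), Cenpa (-2.19), Cdkn3 (-2.13), Cdc20 (-2.11) and Pttg1 (-2.07) were the lowest, followed by Ccnb2 (-1.69) and Ube2c (-1.46).

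Other genes showed little of this over all classes together. Mki67 was at 342 CPM (315 to 371) in cells with many S phase UMIs and 375 CPM (347 to 404) in cells with few. Cdk1 was at 646 CPM (608 to 686) and 620 (584 to 657), and Spc25 at 464 (432 to 498) and 475 (444 to 508), and for these 3 genes the intervals overlap, though not among neuroblast-like cells alone. Top2a was higher in cells with many, 1237 CPM (1184 to 1293) against 887 (844 to 931), as was Aurkb, 203 CPM (182 to 225) against 127 (111 to 144). Bub1, Ndc80 and Kif11 lay in the same direction with log2 ratios of 0.26, 0.26 and 0.22 and overlapping intervals. Within the passenger complex the log2 ratio was 0.65 for Aurkb, -0.24 for Birc5 and -0.76 for Cdca8. The 3 parts of the Ndc80 complex lay close to 0, at -0.03 for Spc25, 0.02 for Nuf2 and 0.26 for Ndc80.

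**Figure D3:**
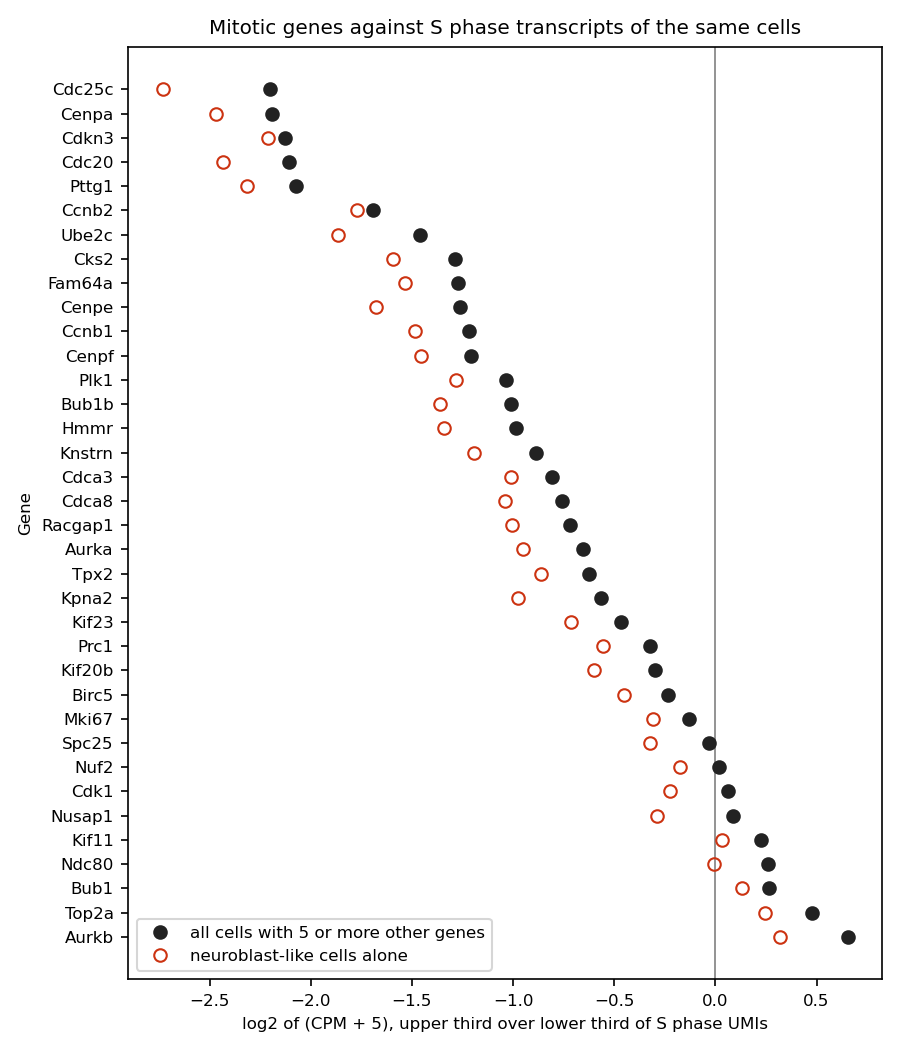
Log2 ratio of CPM + 5 (horizontal axis) for each gene (vertical axis), cells with many over cells with few S phase UMIs, for all cells with 5 or more of the other genes (filled) and for neuroblast-like cells alone (open). Cdc25c, Cenpa, Cdkn3, Cdc20 and Pttg1 lie below -2, and Top2a and Aurkb lie at the high end in both sets of cells.

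Since the 2 groups of cells differed in class, the split was repeated within classes. Among neuroblast-like cells (730 cells with 15 or more S phase UMIs and 697 with 8 or fewer) 32 of the 36 genes were lower in cells with many, 30 of them with intervals apart, and 46.6% of all genes were. Cenpa was there at 239 and 1340.5 CPM, Ube2c at 515 and 1890.4, and Top2a at 1263 and 1064 CPM, in cells with many and with few. The 3 genes that overlapped over all classes were lower here with intervals apart: Mki67 was at 338 CPM (309 to 370) in cells with many and 420 (387 to 456) in cells with few, Cdk1 at 645 (604 to 689) and 756 (711 to 803), and Spc25 at 461 (426 to 497) and 578 (539 to 620). Among OPC-like cells (83 cells with 8 or more and 91 with 4 or fewer) 26 were lower, 7 with intervals apart, and 51.4% of all genes were. Pttg1 (302 and 1126 CPM), Ccnb2 (127 and 466 CPM) and Cenpa (341 and 1191 CPM) were the lowest there, and Aurkb (169 and 33.0 CPM) and Top2a (956 and 489 CPM) the highest.

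Whether dividing OPC-like cells carried the genes at the level of dividing neuroblast-like cells was asked among cells with 5 or more of the other genes. There were 281 OPC-like and 2431 neuroblast-like cells with 5 or more of the genes, with medians of 16 and 17 genes and 3542 and 2965 UMIs. These cells were chosen without thinning, and a deeper cell passes the limit more easily. The part of this depth in the differences below was not tested. 35 of the 36 genes were lower in the OPC-like cells, where 47.4% of all genes were, and 28 had intervals apart. 9 passed the rule for a call (Top2a, Aurka, Aurkb, Bub1b, Plk1, Spc25, Knstrn, Cks2 and Fam64a), against a background of 8.82%, and none was called higher (background 14.2%). The median log2 ratio was -0.44 for the 36 genes and 0.03 for all genes. Aurkb was at 95.2 CPM (77.5 to 116) in OPC-like cells and 180 (170 to 190) in neuroblast-like cells, and Top2a at 672 CPM (622 to 724) and 1193 (1168 to 1219). At the other end Cenpa was at 697 CPM (647 to 750) and 765 (745 to 785), Racgap1 at 169 (145 to 196) and 192 (182 to 202), and Cdkn3 at 70.6 (55.5 to 88.7) and 70.0 (64.1 to 76.3). The intervals of these 3 genes overlap. The 30 S phase genes summed to 3387 CPM in the OPC-like and 6099 CPM in the neuroblast-like cells, and their part in the difference was not tested.

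**Figure D4:**
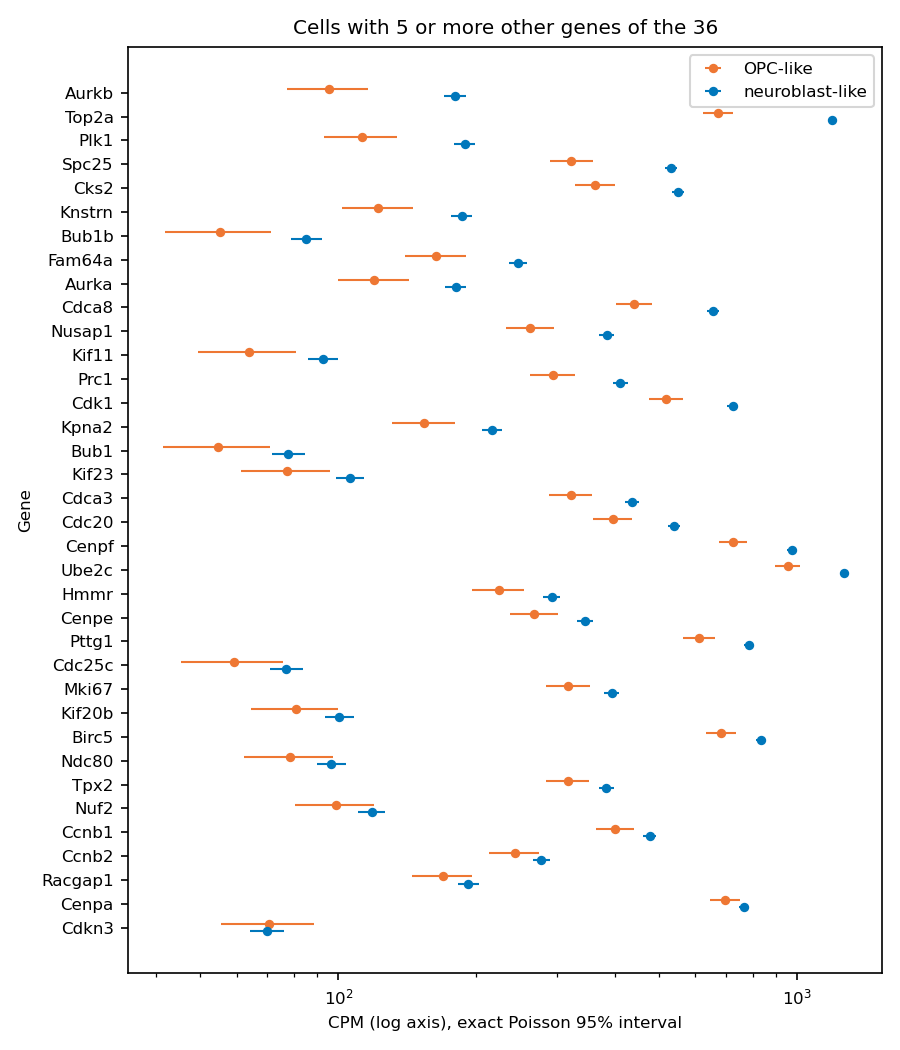
CPM on a log axis with exact Poisson 95% intervals for each gene in OPC-like (orange) and neuroblast-like cells (blue) that hold 5 or more of the other genes. OPC-like values lie left of neuroblast-like ones for every gene but Cdkn3, with the widest gap for Aurkb at the top.

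Other genes of division moved with the 36. In cells with 5 or more of the genes, against the other cells, 15.3% of all genes were called higher and 39.1% lower. All 30 S phase genes were called higher, among them Rrm2 (712 CPM against 53.5), Pcna (516 against 91.4) and Slbp (337 against 75.2), which make nucleotides, clamp the polymerase and process histone RNA. Of 35 other kinetochore and checkpoint genes 34 were called higher, with Bub3 at 429 CPM against 131 and Cenpm at 419 against 32.5, and Zwint, at 156 against 115 CPM, was the one not called. Of 27 other spindle and cytokinesis genes 25 were called higher. Tacc3, a spindle pole protein, was at 174 CPM against 11.6, Psrc1 at 116 against 65.9, and Ckap5, a microtubule polymerase used throughout the cycle, at 218 against 177 without a call. Of 22 other entry, exit and anaphase genes 18 were called higher, including Cks1b (611 CPM against 58.5) and Arl6ip1 (1111 against 522), and Anapc11 (439 against 364) was not. All 12 condensin and chromatin genes were called higher, led in UMIs by the histone variant H2afz (6031 CPM against 713), Hmgb2 (3682 against 259) and the condensin ATPase Smc4 (744 against 62.8).

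Of 16 regulators of mitotic genes 11 were called higher and 1 lower. Foxm1 and Mybl2, activators of G2 and M phase genes, were at 38.5 CPM against 1.95 and 22.2 against 1.91, and Rbl2, a pocket protein of quiescent cells, was the one called lower, at 9.98 against 17.3 CPM. These 3 were chosen for naming after their values were seen. Nfyb, part of the factor that binds CCAAT boxes, was at 96.0 CPM against 35.6, and Trp53 at 164 against 88.7. Cdkn1a, the p53-induced inhibitor of cyclin-dependent kinases, was at 395 CPM against 518 and was not called. Outside all lists, the 10 genes with the largest ratios were Mxd3 (134 CPM against 2.98), Esco2 (175 against 4.04), Neil3 (59.6 against 1.67), Hist1h1b (308 against 8.86), Shcbp1 (93.4 against 3.40), Tk1 (199 against 10.3), C330027C09Rik (47.6 against 2.91), 2810417H13Rik (1496 against 93.1), Asf1b (106 against 6.66) and Lrr1 (44.8 against 2.87). Esco2 acetylates cohesin, Tk1 makes thymidylate, Asf1b hands histones to new DNA and Neil3 is a DNA glycosylase.

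Lineage markers in the same cells went in several directions. Of 12 neuroblast markers 11 were called higher in cells with 5 or more of the genes, with Tubb3, a neuronal tubulin, at 679 CPM against 166. The twelfth, Stmn2, a marker of growing neurites, was called lower, at 83.2 CPM against 231. All 12 astrocyte markers were called lower, including Gfap (596 CPM against 4207) and Clu (133 against 1129). Of 9 progenitor markers 4 were called higher, with Hes6 at 364 CPM against 89.5 and Sox2, which was not called, at 179 against 251. Of 10 oligodendrocyte precursor markers Pdgfra and Sox10 were called higher and C1ql1 lower (12.5 CPM against 73.9), and Olig1, at 38.1 against 45.2, was not called. With cells thinned to 2000 UMIs 1 of the 10 was called higher and 2 lower. All 7 ependymal and all 6 pericyte or smooth muscle markers were called lower, as were 5 of 7 microglia markers, 4 of 5 of myelinating oligodendrocytes and 2 of 4 of endothelial cells. None of 6 fibroblast markers was called, and the single choroid plexus marker with at least 30 UMIs, Ttr, was called higher at 3.66 CPM against 1.10. No erythroid marker reached 30 UMIs.

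Between the 2 barcode numbers the genes differed little. Their summed level was 3497 CPM (3475 to 3519) among barcodes ending in 1 and 3951 CPM (3912 to 3990) among those ending in 2, and the thinned share of cells with 5 or more of the genes was 23.0% (22.0 to 23.9%) and 24.98% (23.4 to 26.6%). 33 of the 36 genes were lower in number 1, where 57.7% of all genes were, and 17 had intervals apart. None was past 1.5-fold in either direction, against backgrounds of 2.17% of genes higher and 0.491% lower in number 1. The log2 ratio with 1 CPM added, number 1 over number 2, ran from -0.35 for Cks2 (133 CPM and 170 CPM) to 0.14 for Kif20b (27.1 and 24.5), and the 3 genes higher in number 1 were Kif20b, Racgap1 and Nuf2. Neuroblast-like cells were 23.4% of number 1 and 26.0% of number 2. Within neuroblast-like cells 28 genes were lower in number 1 (46.2% of all genes) and 10 had intervals apart, with a median log2 ratio of -0.09 beside -0.16 over all cells.

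The promoters of these genes are shown because cycle genes of G2 and M phase are known to share a cell cycle homology region (CHR, TTTGAA) and CCAAT boxes, where the MuvB complexes and NF-Y bind. RefSeq windows of GRCm38.p6, from 250 bases before to 50 after the annotated start, were found for 32 of the 36 genes; Aurkb, Tpx2, Cdc25c and Fam64a had none. Below, 7 of them are given 5′ to 3′ in the gene's direction from 110 bases before the start, with letters of CHR (TTTGAA or TTCAAA) and CCAAT (or ATTGG) in capitals. They are Ccnb2 and Cdk1 for entry, and Nusap1 as a gene with neither motif. Cenpa, Cdc20 and Ube2c are from among the genes lowest beside many S phase UMIs in the added split, and Top2a lay opposite them there. The windows lie at chr9:70421530-70421664 (minus strand, Ccnb2), chr10:69352888-69353022 (minus, Cdk1), chr11:99024165-99024299 (minus, Top2a), chr4:118437319-118437453 (minus, Cdc20), chr5:30666776-30666910 (plus, Cenpa), chr2:164769819-164769953 (plus, Ube2c) and chr2:119618188-119618322 (plus, Nusap1).
Ccnb2: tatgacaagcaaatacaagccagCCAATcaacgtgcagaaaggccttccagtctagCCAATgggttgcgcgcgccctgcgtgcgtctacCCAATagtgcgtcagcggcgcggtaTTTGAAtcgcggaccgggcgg
Cdk1: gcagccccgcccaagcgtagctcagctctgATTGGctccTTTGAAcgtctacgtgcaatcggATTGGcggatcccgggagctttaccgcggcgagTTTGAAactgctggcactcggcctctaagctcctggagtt
Top2a: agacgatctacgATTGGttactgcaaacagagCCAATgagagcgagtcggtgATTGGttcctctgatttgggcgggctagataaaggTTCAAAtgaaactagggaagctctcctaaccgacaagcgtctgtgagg
Cdc20: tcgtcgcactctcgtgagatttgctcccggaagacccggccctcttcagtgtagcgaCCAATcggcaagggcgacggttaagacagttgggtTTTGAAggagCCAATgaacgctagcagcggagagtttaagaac
Cenpa: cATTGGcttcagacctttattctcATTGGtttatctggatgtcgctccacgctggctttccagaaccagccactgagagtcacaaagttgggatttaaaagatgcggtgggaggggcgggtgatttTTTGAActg
Ube2c: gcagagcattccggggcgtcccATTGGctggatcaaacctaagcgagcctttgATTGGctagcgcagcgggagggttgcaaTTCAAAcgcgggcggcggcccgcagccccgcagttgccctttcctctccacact
Nusap1: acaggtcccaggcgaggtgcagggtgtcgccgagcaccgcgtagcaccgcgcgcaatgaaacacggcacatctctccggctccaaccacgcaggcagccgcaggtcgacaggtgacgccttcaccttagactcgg
Ccnb2 held 3 CCAAT matches, 87, 54 and 21 bases before the start and 33 bases apart each, and a CHR 25 bases further on. Top2a held 3 CCAAT matches in this stretch, 20 bases apart, and a CHR 35 bases after the last. In Cdc20 the CHR lay between its 2 CCAAT matches, and in Ube2c it followed 28 bases after the second.

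Over the whole windows, both strands, 23 of the 32 genes (71.9%) held CHR and 25 (78.1%) held CCAAT. Of all 27025 windows 18.1% held CHR and 37.9% held CCAAT, and of the 9852 windows of genes with at least 30 UMIs here 11.04% (1088) and 38.9% did. Both motifs stood in 21 windows of the group (65.6%), against 7.12% of all windows. In 21 genes a CHR lay within 50 bases of the start, against 4.92% of all windows. Of the 64 CCAAT matches 59 lay before the start. So do 250 of the 300 bases of each window, and the share over all windows was not computed. Distances are from the RefSeq start. The last 40 bases of the window were found in a GENCODE transcript of the gene for 25 of the 32 genes. In GENCODE the gene Cenpa begins at position 30666777, near the first base of the stretch shown above. Distances from GENCODE starts were not computed. Pairs of CCAAT 31 to 34 bases apart, a spacing chosen after these sequences had been seen, stood in 10 genes (31.2%), against 1.28% of all windows. Such pairs stood in 2.20% of windows of genes with at least 30 UMIs. As the spacing was chosen with these sequences in view, the count in these genes cannot serve as a test. Pairs stood in 3 of 29 windows of other kinetochore and checkpoint genes (10.3%) and 1 of 24 of other spindle and cytokinesis genes (4.17%). Among other entry, exit and anaphase genes 1 of 17 windows held them (5.88%), and 0 of 8 among condensin and chromatin genes. S phase genes had them in 1 of 24 windows (4.17%) and regulators in 1 of 13 (7.69%). The E2F motif (TTTCGCGC, TTTGGCGC or TTTCCCGC) was found once, in Cdk1 (3.13%), against 1.91% of all windows and 3.70% of windows of genes with at least 30 UMIs. Of the 24 S phase genes with a window 9 held E2F (37.5%) and 3 held CHR (12.5%). CHR stood in 17 of 24 windows of other spindle and cytokinesis genes (70.8%) and in 11 of 29 of other kinetochore and checkpoint genes (37.9%). Nuf2, Knstrn, Nusap1, Pttg1 and Birc5 held neither CHR nor CCAAT. A match is a string of letters and says nothing of binding in these cells.

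**Figure D5:**
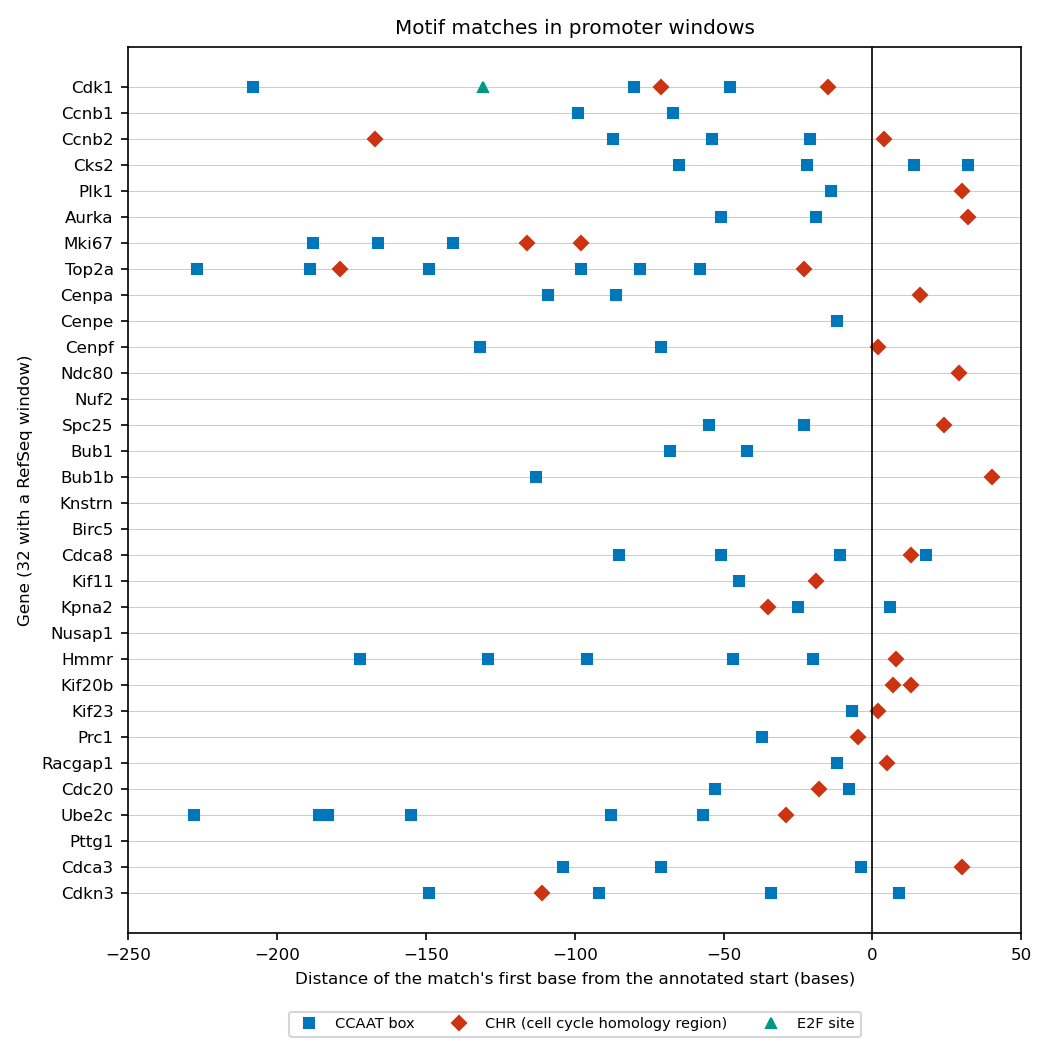
Distance in bases from the annotated start (horizontal axis, start at 0) of each motif match in the promoter windows of 32 genes (rows), with CCAAT boxes as squares, CHR as diamonds and E2F sites as triangles. CHR diamonds lie within 50 bases of the RefSeq start in 21 genes. CCAAT squares lie mostly before it, as do 250 of the 300 bases of each window.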

How the data were processed

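The authors deposited whole UMI counts per gene and barcode in 1 pooled matrix, made with Cell Ranger 2.1.1 against mm10, per the submitters' processing notes. The 36 genes, gene lists and marker lists were chosen with earlier results of these data known. Barcodes with fewer than 500 genes (635) or over 10% mitochondrial UMIs (912) were left out, 1407 in all. Scrublet (scanpy 1.11.5) then marked doublets within each barcode number, 239 in number 1 (2.42%, 7.90% expected at 0.8% per 1000 cells) and 11 in number 2 (0.323%, 2.73% expected), so some doublets remain.

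Each cell was scaled to 10000 UMIs and logged. The 2000 most variable genes, less the 36 and the cell cycle lists, gave 30 components, 15 neighbours and, at a resolution of 0.5, Leiden clusters. Python 3.11.15 ran pandas 2.3.3, numpy 2.4.6, scipy 1.17.1, scikit-learn 1.9.0, python-igraph 0.11.9 and leidenalg 0.10.2, with matplotlib 3.10.9 for figures. A cluster took the name of the marker list, of 12, with the highest mean log2 ratio if 3 or more markers were at least 2 times the other cells and no other list had more of its 10 leading genes. Log2 ratios used CPM + 5 (CPM + 1 between barcode numbers). Shares and S phase splits used cells thinned to 2000 UMIs. No p-value was computed. The scripts were tested on simulated data. Named genes are all 36, of each other list the 3 with most UMIs, 2 of each marker list, the 6 leading genes of a cluster, and the 10 largest ratios outside the lists with at least 500 UMIs. Pdgfra, Sox10, Foxm1, Mybl2 and Rbl2, and the genes named by a count of 5 or fewer, were named after their values were seen. Some genes that this rule would name are not reported here. In GENCODE M21, 28339 of 28692 gene IDs (98.8%) and all 36 genes were found; promoter sequences are RefSeq's, GRCm38.p6.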

Additional observations from a re-analysis of the deposited data

Results flagged for a closer look

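The difference between barcode numbers did not run one way in every class. The log2 ratio of the group's summed level, number 1 over number 2, was -0.11 in neuroblast-like cells (11878 and 12794 CPM), 0.13 in OPC-like cells (5981 and 5476 CPM) and 1.05 in fibroblast-like cells (2758 and 1332 CPM). These differences between classes were not tested, and the fibroblast-like values rest on 169 and 49 cells. Among OPC-like cells the share with 5 or more of the genes was 44.8% in number 1 (39.6 to 50.04%) and 34.8% in number 2 (27.9 to 42.1%).

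Barcodes left out of the comparisons also held the genes. The 1407 barcodes with few genes or many mitochondrial UMIs had a summed level of 576 CPM (543 to 609), and 2.27% of them held 5 or more of the genes. The 250 called doublets had 4675 CPM (4546 to 4806), and 66% of them held 5 or more, at a median of 4328.5 UMIs.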

How the results depend on the processing

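Under other settings 57 values of the main results stayed within the counting interval, or 1.5 times the count, of the value reported and 13 did not; of single classes and genes 151 did, 70 did not and 2 changed sign. The summed level in neuroblast-like cells (12138 CPM) was 11473 CPM with no cell filter, 10966 with doublets kept, 13516 with all variable genes in the clustering, 11397.5 at Leiden resolution 1.0, 12233 with 15 components, 11878 in barcodes of number 1 alone and 12794 in number 2 alone, and all 36 genes were called higher in each, with a median log2 ratio of 2.13 at resolution 1.0 against 3.31. Genes called higher in OPC-like cells (29) fell to 9 in number 2 alone and 1 with a 2-fold limit, and were 21 to 32 otherwise. The share of cells rich in the genes (23.5%) was 28.5% for 3 or more genes, 18.9% for 8 or more and 17.7% when thinned to 1000 UMIs. Genes lower in cells with many S phase UMIs were 8 by the first split (6 to 8 under its other settings) and 28 by the added one. The median log2 ratio in progenitor-like cells (-0.12) turned to 0.16 with no cell filter and 1.75 at resolution 1.0; the cause was not tested. All 36 genes were called lower in astrocyte-like cells under each clustering setting tried. No paired analysis was possible because each condition has 1 library and no barcode is tied to one. With a median of 2842 UMIs per cell, the absence of a sparse gene such as Cdkn3 from a cell is not evidence that it was not expressed.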
